A study of Mus musculus with 9 samples.

Results

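Sterol regulatory element binding proteins (SREBPs), which drive the genes of cholesterol and fatty acid synthesis, are made as precursors in the membrane of the endoplasmic reticulum, and 6 genes of the circuit that holds or releases them were followed here in mouse angiosarcoma cells treated with propranolol. The genes were Srebf1 and Srebf2, which encode the SREBPs, Scap, which encodes their escort, Insig1 and Insig2, which encode the proteins that retain the escort, and Stard4, which encodes a soluble sterol carrier. They were chosen by name from a total of 16593 genes on the array, and every probe that the platform annotation assigned to them was taken, 12 of 25697 probes. Of these, 4 belonged to Insig1, 3 to Insig2, 2 to Srebf1 and 1 each to Scap, Srebf2 and Stard4.

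When membranes hold enough sterol, SCAP binds an INSIG protein and the SREBP precursor stays in the endoplasmic reticulum. When sterol falls, SCAP carries the precursor to the Golgi apparatus, where a pair of proteases release the part that enters the nucleus and acts on sterol regulatory elements. Insig1, Srebf2 and Stard4 are themselves known targets of nuclear SREBP, and most of what is known of the circuit comes from cultured fibroblasts, hamster ovary cells and mouse liver.

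SVR cells are mouse endothelial cells, transformed in culture, that form angiosarcomas. Propranolol is a blocker of beta adrenergic receptors, and the array experiment asked which transcripts change when these cells are exposed to it. RNA was read on 9 Illumina bead arrays, with 3 arrays of sham-treated cells labelled 0 h, 3 of cells given 50 µM propranolol for 4 h and 3 of cells given 50 µM for 24 h. The methods describe a higher dose and a sham culture of the same duration as the drug. The labels and the methods thus differ on the dose and on the time of the sham cells, and the labels were followed. By the labels no sham array is of 4 h or 24 h, so an effect of the drug and one of time in culture cannot be told apart below. All 3 groups are 1 transformed line with no other allele or agent named. The methods also state that RNA was pooled over 3 biological replicates and that arrays were run in triplicate, so the p-values below speak only to how far arrays of a group differ, a spread that may be technical.

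The arrays were of like brightness, with mean signals between 306.5 and 387.7 intensity units for sham, 326.6 and 373.2 at 4 h, and 306.7 and 341.6 at 24 h, and between 11454 and 12245 probes per array were detected, that is, had a detection p-value under 0.05 against negative controls. The third 24 h array was the only array on a second BeadChip. Endothelial markers were detected on every array for 7 of 9 genes with a probe. All 7 of them rose at 24 h by their brightest tested probe, by 1.01 to 2.69 on the log2 scale. Over 7969 tested genes 13.6% rose in this comparison. A further Egfl7 probe, ILMN_2631417, was not called (0.33, limma adjusted p = 0.23), while other probes of Egfl7 and Pecam1 rose (1.25 and 0.91). The summed signal of the 7 was 10833 to 14988 in sham, 10628 to 12881 at 4 h and 23151 to 26928 at 24 h. Of 12 genes with a probe that mark other cell types, Krt18 and Pdgfra were detected on every array and Des on every treated array. The summed signal of these 3 was 501 to 685 in sham, 508 to 575 at 4 h and 443 to 487 at 24 h. At 24 h Krt18 fell (-1.41), while Pdgfra went the other way (0.54, which is 1.45-fold) and Des was at -0.11. The summed signal of all 12, most of them not detected, was 1229 to 1514, 1280 to 1408 and 1189 to 1264. The part of these shifts in the changes below was not tested. In bulk RNA, a change in the make-up of the culture and a change in RNA per cell cannot be told apart.

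The promoters of Insig1 and Srebf2 are shown because both genes were called at 24 h. RefSeq windows (build GRCm38.p6, 250 bases before to 50 after a transcript start) matched 5 of the 6 genes, with 10 windows among them, 3 each for Srebf1 and Insig2, 2 for Scap and 1 each for the genes shown. Capitals mark matches, on either strand, to a sterol regulatory element (ATCACCCCA), an NF-Y box (CCAAT), a GC box as bound by Sp1 (GGGCGG) or an E-box (CACGTG), so that ATTGG is an NF-Y box and CCGCCC a GC box read on the opposite strand. No marked matches overlapped in these windows. The Insig1 window is chr5:28071162-28071461 on the plus strand and the Srebf2 window is chr15:82147019-82147318 on the plus strand, both printed 5′ to 3′.
Insig1: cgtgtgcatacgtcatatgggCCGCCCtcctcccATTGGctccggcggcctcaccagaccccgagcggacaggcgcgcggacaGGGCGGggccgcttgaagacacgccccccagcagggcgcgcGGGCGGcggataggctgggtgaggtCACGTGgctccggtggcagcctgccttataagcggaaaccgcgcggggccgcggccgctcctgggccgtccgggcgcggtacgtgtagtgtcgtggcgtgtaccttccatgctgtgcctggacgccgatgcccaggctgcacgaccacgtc
Srebf2: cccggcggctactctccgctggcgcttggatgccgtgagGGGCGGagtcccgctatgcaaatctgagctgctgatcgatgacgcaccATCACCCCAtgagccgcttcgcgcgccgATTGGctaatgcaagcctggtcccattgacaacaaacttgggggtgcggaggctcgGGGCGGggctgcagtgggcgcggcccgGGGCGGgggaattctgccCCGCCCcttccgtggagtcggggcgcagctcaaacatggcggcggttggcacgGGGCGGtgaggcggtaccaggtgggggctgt
The Srebf2 window held 1 sterol regulatory element, which starts 163 bases before the transcript start, 1 NF-Y box and 5 GC boxes, and no E-box. The Insig1 window held 1 NF-Y box, 3 GC boxes and 1 E-box, which starts 101 bases before the transcript start, and none of the letters searched for the sterol regulatory element. Among the 10 windows the sterol regulatory element was found in that of Srebf2 alone, against 92 of 32851 windows of the same length (0.28%). The NF-Y box was in 37.4% of all windows, the GC box in 35.7% and the E-box in 7.15%. The E-box was also in both Scap windows, which overlap and share the same site, and 1 Insig2 window held 3 NF-Y boxes and no GC box. These are matches of letters, not measured binding.

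Of the 12 probes, 9 were tested because they were detected on all 3 arrays of at least 1 group. The other 3, ILMN_2696876 of Srebf1, ILMN_2620965 of Insig1 and ILMN_1234858 of Insig2, were detected on 0 of 9 arrays and have no usable level. At least 1 probe of each gene was tested, and 8 of the 9 tested probes were detected on every array. Each value rested on 23 to 55 beads (median 37), with a standard error over beads of 2.31% to 6.34% of the signal for the tested probes. Changes are log2 differences between group means of background-corrected, quantile-normalized signal, tested with limma and adjusted by Benjamini-Hochberg over 11653 probes. A probe was called where the adjusted p was under 0.05 and the change was at least 1.5-fold, which is 0.585 on the log2 scale.

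**Figure D1:**
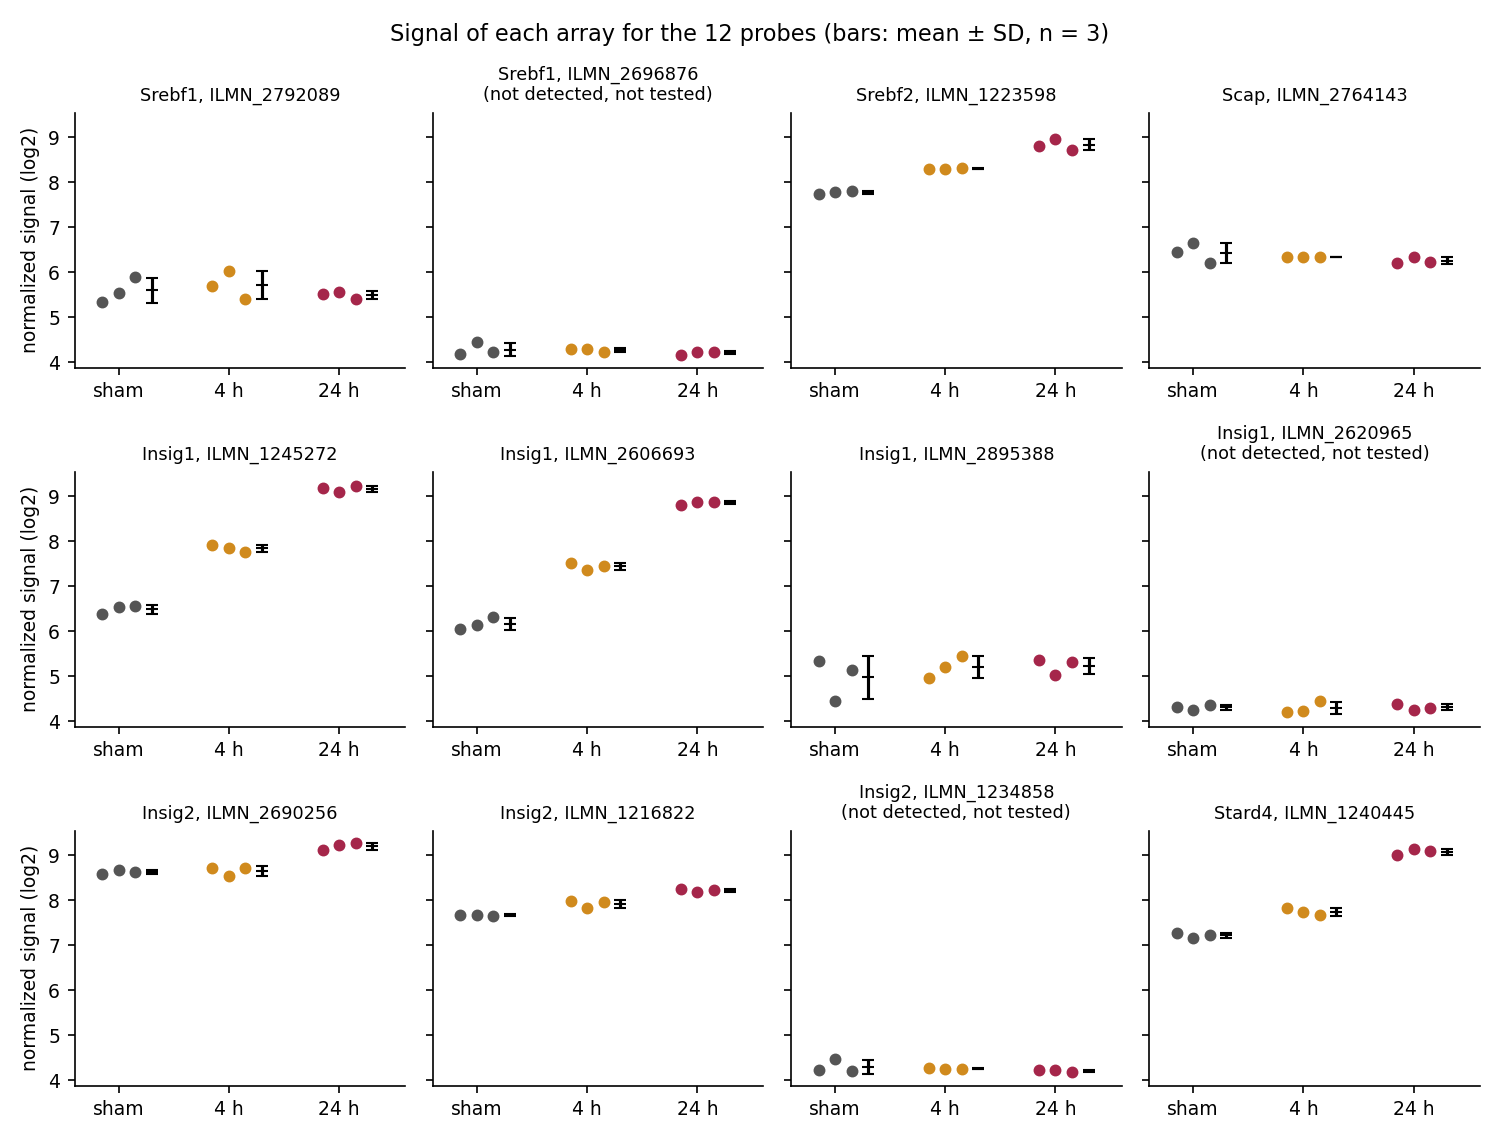
Normalized log2 signal (vertical axis) of each of the 12 probes on each array, by group (horizontal axis), with bars for the mean and SD of 3 arrays. Both responding Insig1 probes, Srebf2 and Stard4 step up from sham to 4 h and again to 24 h, while Srebf1 and Scap overlap between groups.

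At 24 h, 4 of the 9 tested probes rose against sham and 0 fell. They belonged to Insig1 (with probes ILMN_1245272 and ILMN_2606693), Srebf2 and Stard4, and Insig1 rose most. Over all tested probes 12.8% rose and 12.1% fell in the same comparison. With no minimum fold, 6 of the 9 were higher, the other two being the probes of Insig2, against 28.3% of all probes, and the same number had arrays that did not overlap between groups, against 64.7%. No member fell at an unadjusted p under 0.05 or with unmoderated variances. The median log2 change was 0.57 over the 9 probes and -0.04 over all tested probes.

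At 4 h, 2 of the 9 probes rose, both of Insig1, and 0 fell, against 1.89% of all probes that rose and 2.06% that fell. With no minimum fold 5 probes were higher at 4 h, those of Srebf2, Stard4 and 1 of Insig2 being added, against 12% of all probes. Between 4 h and 24 h, 3 probes rose, the same Insig1 probes and that of Stard4, and 0 fell, against 9.83% and 8.3% of all probes. With no minimum fold 6 were higher at 24 h than at 4 h, against 24.7%. Again no member fell at an unadjusted p under 0.05 or with unmoderated variances in either comparison. The 24 h and 4 h comparisons share the sham arrays.

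Srebf2 encodes SREBP-2, the form that drives cholesterol synthesis and uptake. Its probe, ILMN_1223598, read 307, 254 and 322 intensity units on the sham arrays, 414, 356 and 376 at 4 h and 541, 580 and 451 at 24 h, before normalization. The groups did not overlap, and every 24 h array was above every 4 h array. On the normalized log2 scale the mean was 7.78 ± 0.04 in sham, 8.3 ± 0.01 at 4 h and 8.84 ± 0.12 at 24 h (SD, n = 3 arrays). The gene rose 2.09-fold at 24 h (log2 1.06, SE 0.07, limma adjusted p = 7.3e-07). At 4 h the value was 1.44-fold (log2 0.53, 95% interval 0.37 to 0.69, limma adjusted p = 0.00066), under the minimum fold. The step from 4 h to 24 h was of like size (log2 0.53, limma adjusted p = 0.00013) and was also under the minimum. It passed the minimum without the third 24 h array (0.59, limma adjusted p = 2e-04) and with the BeadChip as a block (0.59). These are not separate checks, since that array is the only one on the second BeadChip and a block sets it aside.

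Srebf1 encodes the SREBP-1 proteins, whose forms differ in their first exon and which act mainly on fatty acid synthesis. Its tested probe, ILMN_2792089, was dim, at 121, 107 and 140 units in sham, 131, 128 and 113 at 4 h and 121, 123 and 109 at 24 h. These groups overlapped throughout. The log2 change was -0.10 at 24 h (95% interval -0.46 to 0.26, limma adjusted p = 0.62) and 0.11 at 4 h (-0.25 to 0.47, limma adjusted p = 0.66), intervals that do not reach 1.5-fold in either direction. The sign of the 24 h value turned with the table normalized by the authors (0.05) and without the third sham array (0.05), so no direction is given. The probes do not say which Srebf1 form they read.

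The change of Srebf1 at 24 h was set against that of Srebf2 within each array. The Srebf1 minus Srebf2 difference moved by -1.16 on the log2 scale at 24 h, and the 3 treated arrays lay apart from the 3 sham arrays (exact two-sided permutation p = 0.1, the smallest that 3 against 3 arrays allow). At 4 h it moved by -0.41 (exact two-sided permutation p = 0.2). Neither passed a threshold of 0.05, which this exact test cannot reach. Over the 7 comparisons of this kind made between probes, the lowest adjusted exact p was 0.175.

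**Figure D2:**
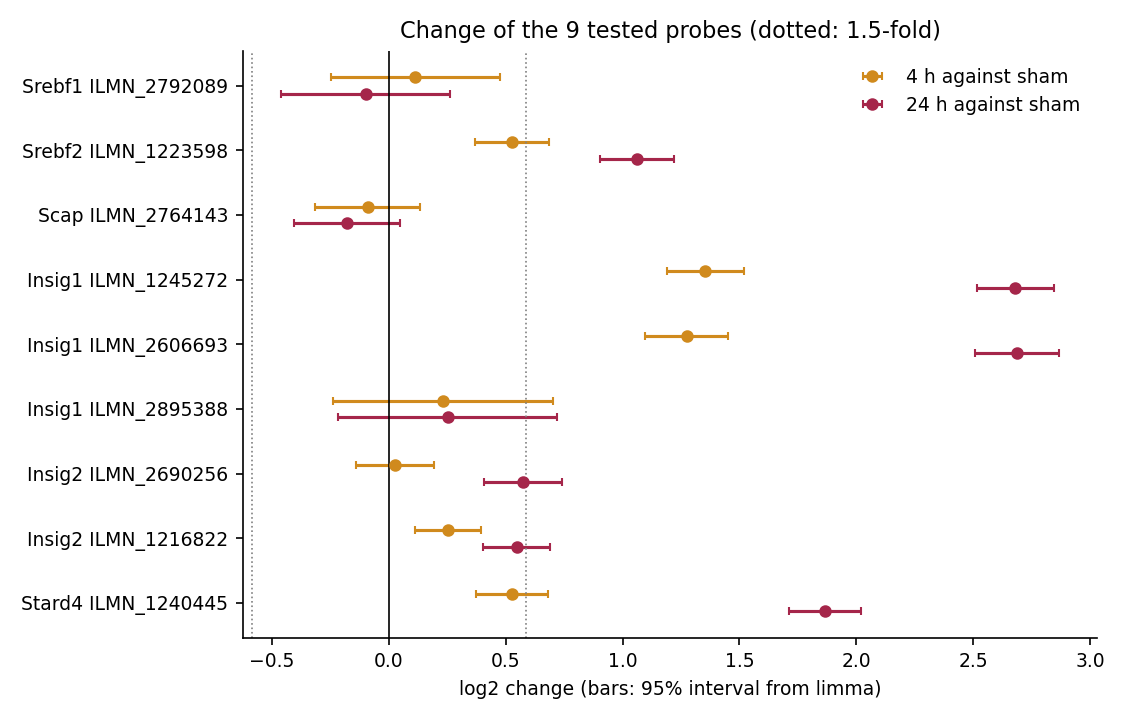
Log2 change (horizontal axis) of each of the 9 tested probes at 4 h and at 24 h against sham, with bars for the 95% interval from limma and dotted lines at 1.5-fold. The 24 h intervals of Srebf2, Stard4 and 2 Insig1 probes lie wholly above 1.5-fold, and those of Srebf1 and Scap include 0.

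Scap encodes the sterol-sensing escort that carries SREBP precursors out of the endoplasmic reticulum. Its probe, ILMN_2764143, read 171, 150 and 155 units in sham, 161, 142 and 149 at 4 h and 152, 160 and 140 at 24 h. The groups overlapped. The log2 change was -0.18 at 24 h (95% interval -0.41 to 0.05, limma adjusted p = 0.15) and -0.09 at 4 h (limma adjusted p = 0.56). The 24 h value was -0.07 without the second sham array and -0.29 without the third (limma adjusted p = 0.013), under the minimum fold in both cases. Its 24 h sign turned with the table normalized by the authors (0.04), so here too no direction is given.

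Insig1 encodes the INSIG protein that is itself under SREBP control and is rapidly degraded when sterols are low. Probe ILMN_1245272 read 167, 144 and 177 units on the sham arrays, 334, 281 and 279 at 4 h and 684, 631 and 611 at 24 h. Probe ILMN_2606693 read 147, 126 and 162 units in sham, 271, 219 and 238 at 4 h and 542, 553 and 487 at 24 h. For both, every 4 h array lay above every sham array and every 24 h array above every 4 h array. The first rose 2.56-fold at 4 h (log2 1.35, 95% interval 1.19 to 1.52, limma adjusted p = 2.6e-06) and 6.41-fold at 24 h (log2 2.68, 2.51 to 2.85, limma adjusted p = 2.8e-09). The other rose 2.42-fold at 4 h (limma adjusted p = 5.9e-06) and 6.44-fold at 24 h (limma adjusted p = 4e-09), and the changes of the pair at 24 h differed by -0.01 on the log2 scale (exact two-sided permutation p = 1). The fold rests on the background step, for without background correction the 24 h values were 4.00-fold and 3.71-fold, with both still called. With the table normalized by the authors they were 3.99-fold and 3.66-fold, again with both called. For that setting an offset of 16 units was added to each value before the logarithm. These folds are therefore smaller than ratios of the same deposited values without that offset.

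Probe ILMN_2895388, annotated to the same gene, did not follow. It read 121, 85 and 114 units in sham, 109, 103 and 115 at 4 h and 116, 106 and 106 at 24 h, and was not detected on the second sham array. Its log2 change was 0.25 at 24 h (95% interval -0.22 to 0.72, limma adjusted p = 0.33) and 0.23 at 4 h (limma adjusted p = 0.48), and without the second sham array these became -0.02 and -0.04. The change of ILMN_1245272 exceeded it by 2.43 on the log2 scale (exact two-sided permutation p = 0.1, the smallest possible). The sequences of the probes were not used here, so which part of the transcript each reads was not examined.

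**Figure D3:**
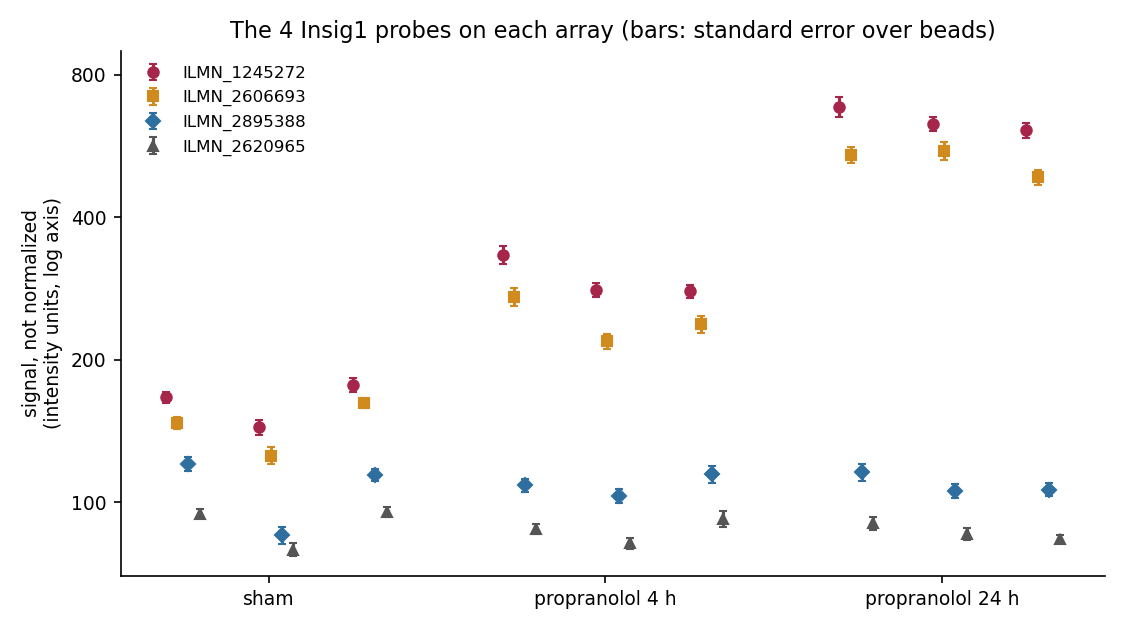
Signal before normalization (vertical log axis, intensity units) of the 4 Insig1 probes on each of the 9 arrays, with bars for the standard error over beads. ILMN_1245272 and ILMN_2606693 separate the groups without overlap, and ILMN_2895388 and ILMN_2620965 stay between 79.5 and 121 units on every array.

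Insig2 encodes the other INSIG, which retains SCAP in the same way and is known from mouse liver to be transcribed without need of SREBP. Probe ILMN_2690256 read 494, 418 and 519 units in sham, 527, 411 and 477 at 4 h and 649, 677 and 622 at 24 h. Probe ILMN_1216822 read 300, 238 and 297 units in sham, 344, 275 and 311 at 4 h and 395, 374 and 343 at 24 h. At 24 h both were above every sham array, and at 4 h the first probe overlapped with sham before and after normalization.

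Neither Insig2 probe was called at 24 h, where they stood just under the minimum fold. The log2 change was 0.57 (1.49-fold, 95% interval 0.41 to 0.74, limma adjusted p = 8.2e-05) for ILMN_2690256 and 0.55 (1.46-fold, 0.41 to 0.69, limma adjusted p = 3.7e-05) for ILMN_1216822. The first passed without the second sham array (0.59) and without the first 24 h array (0.62). At 4 h the values were 0.03 (-0.14 to 0.19, limma adjusted p = 0.83) and 0.25 (0.11 to 0.40, limma adjusted p = 0.018). The changes of both probes at 24 h differed by 0.03 on the log2 scale (exact two-sided permutation p = 0.6).

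The change of Insig1 exceeded that of Insig2, each by its brightest tested probe, by 2.11 on the log2 scale at 24 h and by 1.33 at 4 h. In both comparisons the 3 treated arrays lay apart from the 3 sham arrays in this difference (exact two-sided permutation p = 0.1 for each, the smallest possible).

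Stard4 encodes a soluble carrier that moves cholesterol between membranes, including to the endoplasmic reticulum. Its probe, ILMN_1240445, read 244, 187 and 238 units in sham, 319, 263 and 264 at 4 h and 616, 648 and 559 at 24 h. No array of 1 group overlapped with another group, and the 24 h arrays stood far above the rest. The normalized log2 mean was 7.22 ± 0.06 in sham, 7.75 ± 0.09 at 4 h and 9.09 ± 0.07 at 24 h (SD, n = 3 arrays). The gene rose 3.65-fold at 24 h (log2 1.87, 95% interval 1.71 to 2.02, limma adjusted p = 1.4e-08), and was 1.44-fold at 4 h (log2 0.53, limma adjusted p = 6e-04), under the minimum fold. From 4 h to 24 h it rose 2.53-fold (log2 1.34, limma adjusted p = 2.2e-07), as Insig1 did (2.51-fold by ILMN_1245272 and 2.66-fold by ILMN_2606693).

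Genes of the same pathway were read from 6 lists, each gene by its brightest tested probe, against 7969 genes of which 13.6% rose and 11.1% fell at 24 h, and 2.05% rose and 2.01% fell at 4 h. The median log2 change over these genes was -0.02 at 24 h. The machinery that moves and cleaves SREBP was tested for 9 of 13 listed genes (a site protease, coat proteins and the small GTPases that load them). Mbtps2, which encodes the other site protease, was among those not tested. The tested genes showed no calls, with 0 of 9 up or down at either time and 24 h values from -0.08 to 0.44 (median 0.16). At an unadjusted p under 0.05, 3 of them differed at 24 h and 2 at 4 h. With no minimum fold, 3 were higher and 0 lower at 24 h at an adjusted p under 0.05, so the 1.5-fold minimum left them uncalled. Over all tested probes 28.3% were higher in this way. With unmoderated variances 0 were called. Of 15 listed ligases and extraction factors that degrade INSIG, HMG-CoA reductase and nuclear SREBP, 11 were tested. They likewise gave 0 of 11 at either time, with values from -0.40 to 0.44 (median 0.06). There 4 differed at an unadjusted p under 0.05 at 24 h and 3 at 4 h. With no minimum fold, 3 were higher and 1 lower at 24 h at an adjusted p under 0.05. With unmoderated variances 0 were called.

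The targets of SREBP-2 in cholesterol synthesis and uptake rose as a group. Of 15 tested genes, 14 rose and 0 fell at 24 h, with a median of 2.18, and 10 rose at 4 h, with a median of 0.69. Hmgcs1, the synthase that makes HMG-CoA, read 823 to 1139 units in sham and 8019 to 8450 at 24 h and rose 10.6-fold (log2 3.41, limma adjusted p = 5.4e-10). Fdps (farnesyl diphosphate synthase) rose by 3.25, Mvd (mevalonate diphosphate decarboxylase) by 3.14 and Cyp51 (lanosterol demethylase) by 3.01. At 4 h each of these genes rose by at least 1.397. The gene not called was Tm7sf2, a sterol reductase (0.29), and the called gene Idi1 (isopentenyl diphosphate isomerase) read 87.5 to 102 units in sham and 102 to 111 at 24 h, both named after their values were seen. These 2 genes were detected on 0 of 3 sham arrays and were tested only because the 24 h arrays detected them. All 13 genes detected on every sham array rose. Without background correction 10 of the 15 rose at 24 h.

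Of 12 tested targets of SREBP-1 in fatty acid synthesis, 8 rose and 0 fell at 24 h (median 1.17), and 2 rose at 4 h (median 0.39). Fads2, a fatty acid desaturase, rose most (log2 2.01 at 24 h and 0.90 at 4 h). Scd1 and Scd2, which make monounsaturated fatty acids, rose by 1.43 and 1.42, and Acly (ATP citrate lyase) by 1.30. Those not called, named after their values were seen, were Fasn (0.28), Acaca (0.15), Elovl5 (0.40) and Gpam (-0.25), of which Acaca makes malonyl-CoA and Fasn builds the fatty acid from it. Fasn was detected on 0 of 3 sham arrays.

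Of 10 other intracellular sterol carriers, 7 were higher and 0 lower at 24 h at an adjusted p under 0.05 with no minimum fold. Over all tested probes 28.3% were higher in this way. With the minimum fold, 1 carrier rose and 0 fell at 24 h and 0 rose at 4 h, with a median of 0.37 at 24 h. That gene was Gramd1a, an anchor of membrane contact sites (0.64), which another probe gave as 0.24, not called, and which was not called without background correction. In the other direction Stard5, a START-domain carrier named after its values were seen, was not called by its brightest probe (0.46) but rose by its other tested probe (0.90, limma adjusted p = 0.00056). Of 3 tested LXR receptors and targets, Lpcat3, a phospholipid acyltransferase, rose (0.76) and Abcg1, a sterol exporter, fell (-0.73), the latter not called without background correction (-0.25).

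**Figure D4:**
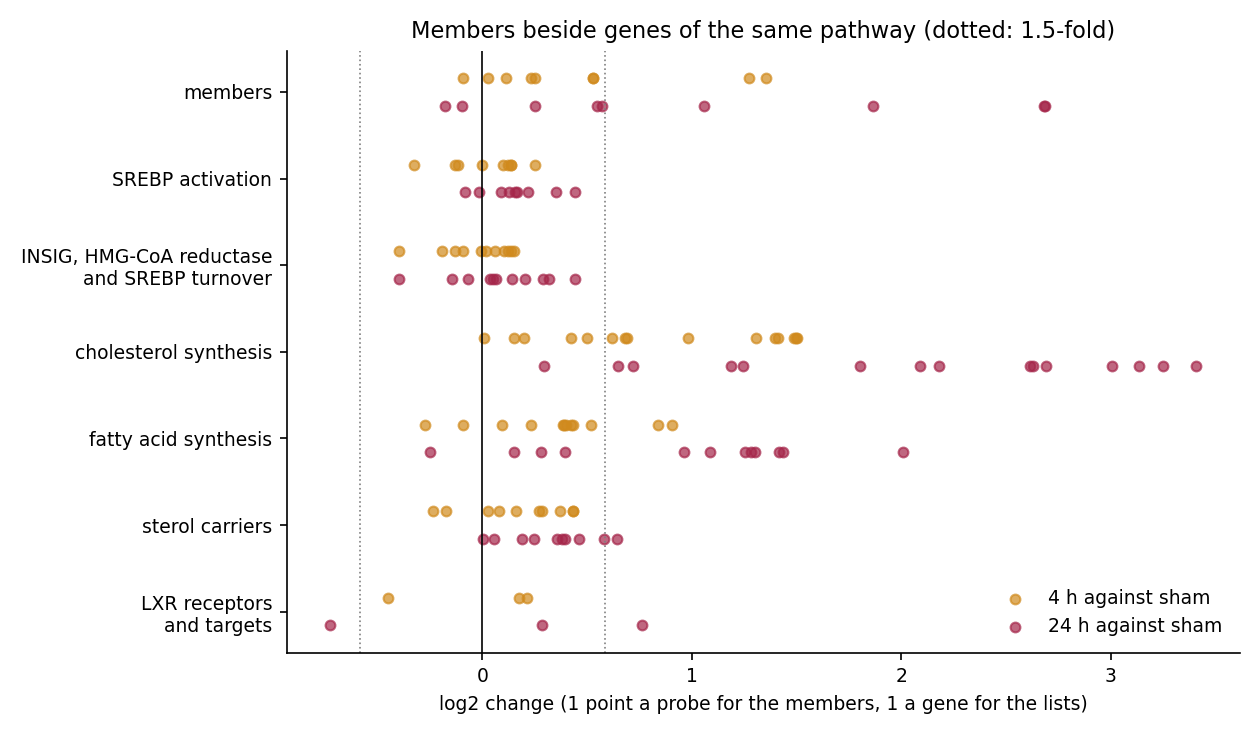
Log2 change (horizontal axis) at 4 h and at 24 h against sham, with 1 point per tested probe for the 6 genes (labelled members) and 1 point per gene for 6 lists of the pathway, and dotted lines at 1.5-fold. Points of cholesterol synthesis reach 3.41 at 24 h, while SREBP activation and turnover stay between -0.40 and 0.44.

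The genes most like each called gene were found by Pearson's r over the 9 arrays among 7963 other genes, given as a description. For Insig1 they were Slc1a4, a neutral amino acid transporter (r = 0.9995), Hmox1, which encodes heme oxygenase (0.9983), and Cyp51 (0.9976). For Srebf2 they were Cklf, a chemokine-like factor (0.9955), Cep120, a centrosomal protein (0.995), and Cyp51 (0.9938). For Stard4 they were Hsd17b7, an enzyme of cholesterol synthesis (0.9986), Neo1, a receptor (0.998), and Zfand2a, a zinc finger protein (0.9975). The points share 3 groups that differ in many genes, and 344, 298 and 599 genes had an r over 0.95 to Insig1, Srebf2 and Stard4, so that a high r is common here.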

How the data were processed

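RNA of SVR cells was read on 9 Illumina mouse bead arrays. The authors deposited, for each probe and array, an intensity (mean brightness of the beads, not normalized), its standard error, the count of beads, and the detection p-value that compares it with negative controls. In another deposited table, the intensity of each array was multiplied by 1 constant that makes the array means equal, and the series' value table is identical to it. The scanner software is not given in the sources used here.

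Groups came from the labels. Of 25697 probes, 23978 carried 1 gene name in the platform annotation and 1719 none. Names were brought up to date through gene numbers for 23962 probes. Background was removed with neqc (normexp, using detection p-values, then quantile normalization, offset 16) of limma 3.58.1 in R 4.3.3. Tested probes had a detection p under 0.05 on every array of at least 1 of the groups. All 9 arrays entered 1 limma model of 3 groups, which share 1 estimate of the spread per probe, and p-values were adjusted by Benjamini-Hochberg over 11653 probes, of which 10991 were named. Differences between probes were tested by exact permutation over arrays (20 splits).

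The genes and lists were chosen with earlier results of these data known. Every probe of the 6 genes is named, with up to 4 called genes of each list by size of change at 24 h and the 3 genes most alike in pattern. On data simulated for 24 h against sham over 11653 probes, 83 of 100 probes changed 1.75-fold, 97 of 100 changed 2-fold and 2 of 11453 unchanged probes were called. Far fewer probes changed there than were called in the measured comparison, where 1493 rose and 1407 fell. The adjustment of p-values depends on that share, so these rates may not hold for the measured arrays.

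Within groups, arrays correlated at 0.9951 to 0.9966 and the median probe differed by 0.812 to 1.74 of the bead error (bead noise alone gives 0.674), so no array was counted as a copy. The number of arrays limits the precision. Alternatives covered the background step, scaling, offset, detection filter, minimum fold, unmoderated variances, replicate number and BeadChip as blocks, and each array left out. Where the table normalized by the authors was used, an offset of 16 was also added to each value before the logarithm. Figures were drawn with matplotlib 3.10.9.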

Additional observations from a re-analysis of the deposited data

Results flagged for a closer look

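The change from sham to 24 h differed from the change from sham to 4 h for 6 of the 9 probes at an adjusted p under 0.05, and for 3 of these by at least 1.5-fold, in the test of the difference itself. This test is the comparison of 24 h with 4 h given above, not a further result. Over all tested probes 24.7% were higher in it with no minimum fold, and with the minimum 9.83% rose and 8.3% fell. The 24 h change exceeded the 4 h change by 1.33 on the log2 scale for Insig1 by ILMN_1245272 (limma adjusted p = 3.3e-07), by 1.41 for Insig1 by ILMN_2606693 (limma adjusted p = 3.5e-07) and by 1.34 for Stard4 by ILMN_1240445 (limma adjusted p = 2.2e-07). In each, all 3 arrays at 24 h were above all 3 arrays at 4 h. With 3 arrays per group, no group was large enough to be tested for a single outlying array.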

How the results depend on the processing

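The calls of Insig1 (ILMN_1245272 and ILMN_2606693), Srebf2 and Stard4 at 24 h, and of both Insig1 probes at 4 h, held under every alternative run. Over single-probe changes and alternatives, 490 kept their direction and side of the threshold, 5 newly passed it (Srebf2 and Insig2, given above, and Insig2 by ILMN_2690256 between 4 h and 24 h, 0.59 without the first 24 h array), and 18 changed sign, in all of which the probe was not called. With no minimum fold the count of probes called was 5 at 4 h and 6 between 4 h and 24 h. With the replicate number as a replicate block the counts were 4 at 24 h, 2 at 4 h and 3 between them, the same as without it. Deviations of same-numbered arrays correlated at -0.02 to 0.01 over 9 pairs, so the numbers were not taken to pair samples. With the BeadChip as a block the counts were 4, 2 and 4. This block sets aside the third 24 h array, much as leaving it out does, so the Srebf2 passes under both settings rest on the same array.

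Signs turned as follows. With the table normalized by the authors, Srebf1 was 0.0549 at 24 h against sham and 0.0012 against 4 h, and Scap was 0.0373 and 0.0690. Scap was 0.0341 against 4 h with median centring, and Insig1 by ILMN_2895388 was -0.0547 against 4 h with scaling to the 75th percentile and -0.0223 with the BeadChip as a block. The difference between the responding Insig1 probes was 0.11 without background correction, 0.12 with the table normalized by the authors, 0.12 with scaling to the 75th percentile and 0.0702 with an offset of 50. That between the Insig2 probes was -0.0316 with median centring.

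Leaving out 1 array at a time gave -0.22 to 0.0459 for Srebf1 at 24 h and -0.0431 to 0.27 at 4 h, -0.29 to -0.0738 for Scap at 24 h and -0.21 to 0.0135 at 4 h, and -0.0082 to 0.0897 for Insig2 by ILMN_2690256 at 4 h. For Insig1 by ILMN_2895388 it gave -0.0184 to 0.43 at 24 h, -0.0375 to 0.41 at 4 h and -0.10 to 0.14 between them. The Insig2 probe ILMN_1216822 at 4 h reached a limma adjusted p of up to 0.26 over the alternatives.

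Of all probes called at 24 h, 51.5% were higher, against 63.7% with the table normalized by the authors and 40.1% with scaling to the 75th percentile, and between 4 h and 24 h 54.2% were higher, against 73.1% with the table normalized by the authors. No scaling moved the median of all probes by over 0.1. Dim probes near the background, such as those of Srebf1 and ILMN_2895388, limit what can be seen of small changes.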
